A study of Mus musculus with 778 samples.

Results

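The 76 genes described here were abundant in non-growing mouse oocytes and scarce in every later stage of oocyte growth. They were chosen by their measured levels. A gene entered the set when it had at least 20 UMI counts per 1000000 (CPM) in non-growing oocytes (NGO) and at most 1/5 of that level, or 20%, in each of 4 later stages (GO1, GO2, GO3 and fully-grown oocytes, FGO). Of the 23201 genes in the count table, 5885 reached 20 CPM in NGO, and the 76 genes are 1.29% of these. Their drop after NGO is therefore the criterion of choice and not a result. What follows describes which genes they are, how far each level dropped, how the genes differed among later stages that the rule did not compare with each other, and how their levels spread over single oocytes.

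Each oocyte was wild type, from ICR mice, and was measured alone by single-cell RNA-seq. A random tag on every cDNA, the unique molecular identifier or UMI, let copies made in amplification be counted once. Stages were set by diameter, under 20 µm for NGO (46 cells), 30 to 45 µm for GO1 (51 cells), 50 to 55 µm for GO2 (26 cells), 60 to 65 µm for GO3 (44 cells) and over 70 µm for FGO (56 cells). NGO were taken 3 to 4 days after birth and all larger oocytes at 3 to 4 weeks of age, so stage and mouse age cannot be told apart wherever NGO is one side of a comparison. All cells of 1 stage were pooled and each gene's UMIs scaled to 1000000, and this CPM value is a share of the measured RNA and not an amount per oocyte. A lower share through loss of a transcript and one through dilution by other RNA cannot be told apart. The cells were processed in 4 libraries, but the table does not tie cells to libraries, so each stage is 1 pooled sample. No test between stages was made, and the intervals given are 95% exact intervals for counting error only.

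Non-growing oocytes lie in primordial follicles, arrested at the end of meiotic prophase. They enter meiosis before birth, when homologous chromosomes are paired by the synaptonemal complex, and most of them rest for long periods before growth is triggered. Growth makes the oocyte larger, stores maternal RNA and protein and builds the zona pellucida, under transcription factors of which several act only in the germ line. A set of transcripts that is high before growth and low throughout it can hold remnants of the meiotic programme, regulators of the primordial stage and housekeeping genes of a small cell.

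The promoters of 4 genes are shown because the genes stand at the centre of the results below. *Sohlh1* had the largest difference between later stages, *Crabp1* had the largest ratio of NGO over later stages, and *Sycp3* and *Mov10l1* were the most abundant of the 6 genes of meiosis and germ line RNA. The sequences are those of RefSeq on GRCm38.p6 and run from 250 bases before to 50 bases after the transcription start, 5′ to 3′ on the gene's strand. Capitals mark CACGTG, a palindromic form of the E-box, to which basic helix-loop-helix proteins are known to bind.
Sohlh1, chr2:25847199-25847498, minus strand: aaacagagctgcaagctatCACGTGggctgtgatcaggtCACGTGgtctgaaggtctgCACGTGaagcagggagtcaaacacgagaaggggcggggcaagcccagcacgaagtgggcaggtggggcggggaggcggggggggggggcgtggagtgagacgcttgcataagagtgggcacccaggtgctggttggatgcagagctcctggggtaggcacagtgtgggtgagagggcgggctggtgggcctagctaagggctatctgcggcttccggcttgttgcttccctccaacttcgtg
Sycp3, chr10:88459337-88459636, plus strand: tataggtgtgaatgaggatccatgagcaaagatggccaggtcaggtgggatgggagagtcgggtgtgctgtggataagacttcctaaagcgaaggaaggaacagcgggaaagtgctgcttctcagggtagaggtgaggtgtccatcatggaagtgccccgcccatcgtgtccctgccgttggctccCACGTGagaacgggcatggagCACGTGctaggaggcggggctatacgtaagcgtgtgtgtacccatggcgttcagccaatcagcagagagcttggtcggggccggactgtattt
Mov10l1, chr15:88982744-88983043, plus strand: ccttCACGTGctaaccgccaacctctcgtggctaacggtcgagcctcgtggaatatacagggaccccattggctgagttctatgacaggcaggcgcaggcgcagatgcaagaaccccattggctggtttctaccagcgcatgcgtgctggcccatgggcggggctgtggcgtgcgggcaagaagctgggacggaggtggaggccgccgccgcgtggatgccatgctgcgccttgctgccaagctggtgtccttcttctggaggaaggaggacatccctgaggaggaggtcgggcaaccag
Crabp1, chr9:54764498-54764797, plus strand: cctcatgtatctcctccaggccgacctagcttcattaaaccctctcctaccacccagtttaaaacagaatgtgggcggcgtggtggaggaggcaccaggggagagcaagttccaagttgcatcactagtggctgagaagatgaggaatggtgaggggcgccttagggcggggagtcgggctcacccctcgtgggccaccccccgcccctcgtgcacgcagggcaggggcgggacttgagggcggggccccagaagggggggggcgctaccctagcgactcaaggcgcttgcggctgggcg

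Promoters were found for 60 of the 76 genes, 1 taken per gene. CACGTG occurred in 15 of the 60 (25%), against 11.6% of 4725 promoters of genes with at least 20 CPM in NGO and 7.24% of all 27025 promoters in the reference table. All 5 members of the meiosis and germ line RNA group with a promoter in the table, *Sycp3*, *Sycp1*, *Mov10l1*, *Adad2* and *Rbm46*, carried it. *Sohlh1* carried 3 copies, *Sycp3*, *Adad2* and *Ctsd* 2 copies each, and *Crabp1* and the 3 members of the MAGE and tumour antigen group none. The general form CANNTG, which includes CACGTG and matches itself on the other strand, was in 71.7% of the 60 promoters, 62.98% of those of NGO genes and 72.1% of all. Homeodomain cores, read on both strands, were rare. TAATTA was in 2 of the 60 promoters (3.33%, against 2.54% in NGO genes and 5.31% of all), and TAATTG in 3 (5%, against 5.04% and 8.15%). The cyclic AMP response element TGACGTCA was in 0 of the 60, against 4.15% of the promoters of NGO genes and 1.88% of all. The median number of CG dinucleotides per promoter was 19 in the 60 genes, 22 in NGO genes and 7 in all, and the median GC content 62%, 60.7% and 52.7%. These are matches of letters, which do not show that a protein was bound.

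Between NGO and the later stages the median gene of the 76 kept 5.66% (GO1), 5.03% (GO2), 6.42% (GO3) and 14.7% (FGO) of its NGO level. Over all 5885 genes with at least 20 CPM in NGO, the medians were 80.01%, 74.03%, 79.4% and 87.6%. At most 1/5 of the NGO level was left for 413 of the 5885 genes at GO1 (7.02%), for 490 at GO2 (8.33%), for 295 at GO3 (5.01%) and for 83 at FGO (1.41%). FGO was thus the stage at which fewest genes met the limit, and 76 of those 83 genes are the set described here. In the stage where it was highest after NGO, the median gene of the set kept 15.5% of its NGO level, against 95.3% over all 5885 genes. The range within the set ran from 0.374% for *Crabp1* to 19.98% for *Piwil2*, just under the limit of the rule.

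**Figure D1:**
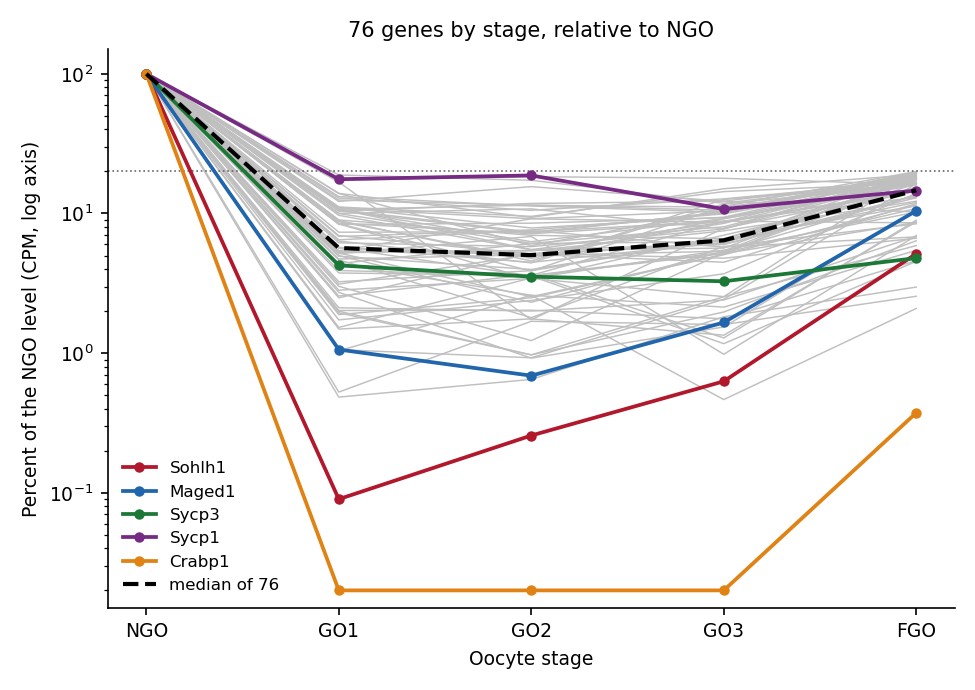
Level of each of the 76 genes as a percent of its NGO level (log axis) in the 5 stages, with 5 genes in colour, the median as a dashed line and the 20% limit of the rule as a dotted line. Values of 0 are drawn at 0.02%. The median lies at 5.03% to 6.42% from GO1 to GO3 and at 14.7% in FGO, and *Sohlh1* goes from 0.0900% in GO1 to 5.15% in FGO.

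The levels were also read oocyte by oocyte, to describe their spread. These are the cells by which the genes were chosen, so the gap between NGO and later cells is no separate result. Summed over the 76 genes, single NGO cells had 5119 to 12390 CPM with a median of 8773. GO1 cells had 189 to 1009 CPM (median 544), GO2 cells 228 to 685 CPM (median 391) and GO3 cells 322 to 763 CPM (median 502). FGO cells had 526 to 3697 CPM (median 1198). The lowest NGO cell was above every later cell, and 36 of the 56 FGO cells were above the highest cell of the 3 stages between. Single genes overlapped more. Of the 76 genes, 1 (*Ctsd*) was higher in its lowest NGO cell than in any later cell, as were 4 of the 5885 NGO genes (0.068%), a contrast that the choice of the genes itself used. In NGO the transcripts were spread over the cells, with a UMI of the median gene in 45 of 46 cells and 7.76% of its NGO UMIs in the cell that held most. With every cell thinned to 20000 UMIs, the median cell still showed a UMI of 47 of the 76 genes at NGO, and of 6, 5.5, 8 and 14 at the following stages, against 75.5, 18, 47.5, 56 and 60 without thinning. Median depth was 540432 UMIs per cell in NGO and 110146 in GO1, and 676786 to 972294 in the other stages. No cell type that should lack these genes is in the table, so the level that free RNA alone would give was not measured.

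**Figure D2:**
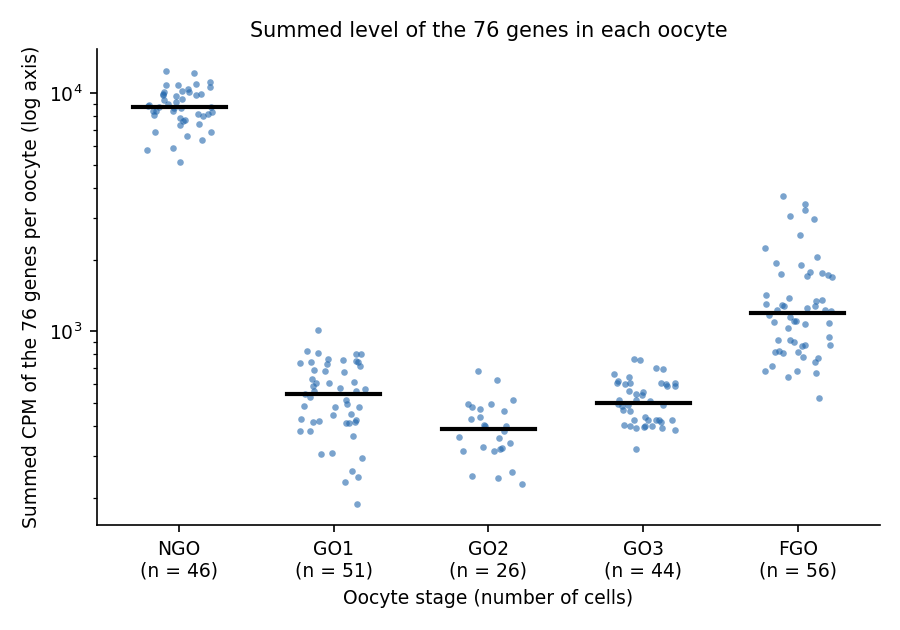
Summed CPM of the 76 genes (log axis) in each oocyte, by stage, with 1 point per cell and the median as a bar. The 46 NGO cells lie between 5119 and 12390 CPM and the 177 later cells between 189 and 3697 CPM, with FGO above GO1 to GO3 at the median.

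The rule set each later stage against NGO and did not compare the later stages with each other. All 76 genes stayed at 20% of NGO or less in FGO by the rule. Lost for good describes them only in part, since 68 of the 76 had their highest later level in FGO. Over the 5885 NGO genes this share was 50.6%. The rule used the levels of all 4 later stages, so no gap to the NGO genes in this paragraph can be read as a trait of the 76. Only *Prdx4*, a peroxiredoxin of the endoplasmic reticulum, and *Fxyd6*, a regulator of the sodium pump, were lowest in FGO. By a limit of 2-fold with at least 3 UMIs in the higher stage, 41 of the 76 genes (53.9%) were higher in FGO than in GO1, against 9.55% of the 5885 NGO genes. A low GO1 level is part of the rule, so the share above 9.55% cannot be read as a trait of the 76. Of the 177 genes that met the limit from GO1 to GO3 but not in FGO, 72.9% passed as well. Each of those is higher in FGO than in GO1 by its definition, so their share cannot serve as a measure for the 76. In the other direction, 0 of the 76 were at least 2-fold lower in FGO, against 2.57%, and 4 of the 76 were when every cell was thinned to 20000 UMIs. The 41 include *Crabp1*, which had 0 UMIs in GO1 and was counted with that 0 as it stood. With 3 UMIs in its place *Crabp1* would not pass the 2-fold limit. The other 40 genes had a UMI in GO1. The interval of the ratio FGO over GO1 lay above 1 for 66 genes, against 54.8% of the NGO genes, and below 1 for *Xdh* and *Sycp1*, against 33.2%. From GO2 to GO3 and again from GO3 to FGO the level was higher for 51 of the 76, against 44.9% of the NGO genes. Deep cells weigh most in these sums, and with equal weight for every cell 53 of the same 76 genes passed the 2-fold limit, against 21.2% of the NGO genes. Without the 10 deepest cells of each stage 57 of the 76 passed, against 27.7%.

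**Figure D3:**
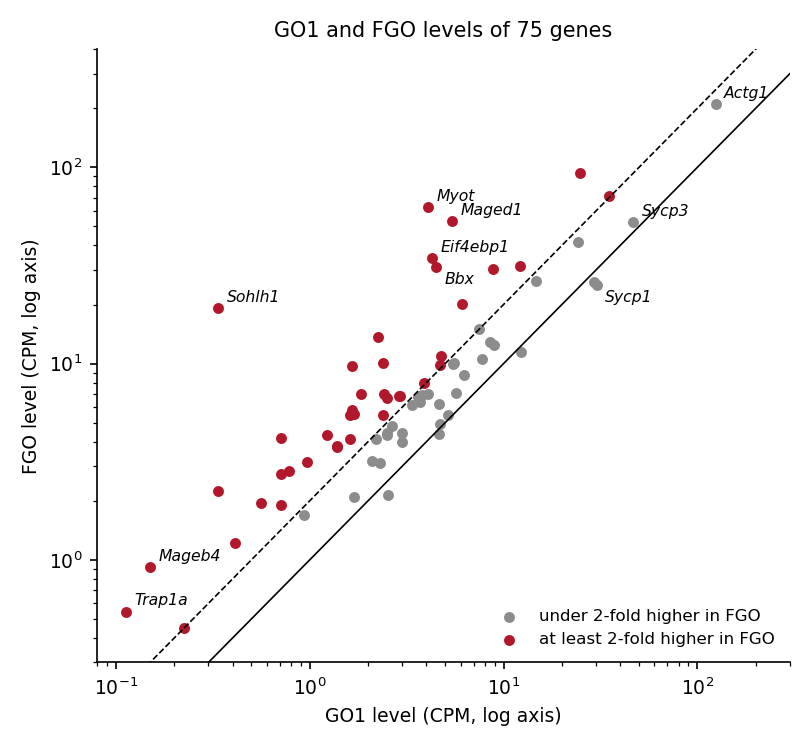
FGO level against GO1 level in CPM (both log axes) for the 75 genes with a UMI in GO1, with lines at equality (solid) and at 2-fold (dashed). The 40 genes at least 2-fold higher in FGO are in red, and *Sohlh1*, at 0.336 CPM in GO1 and 19.2 CPM in FGO, lies farthest from equality.

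The largest of these differences was that of *Sohlh1* (NCBIM37 chr2:25698515-25702768, minus strand), a basic helix-loop-helix factor needed for primordial follicles to form and survive, whose promoter with 3 copies of CACGTG is printed above. Its levels in the order of growth were 374, 0.336, 0.961, 2.35 and 19.2 CPM, with 9417 UMIs read at NGO, 9 at GO1 and 1238 at FGO. Each step after GO1 was upward, and the ratio of FGO over GO1 was 57.2 (30.0 to 125.4). In single cells *Sohlh1* had 93.7 to 795 CPM in NGO (median 387), and a UMI in all 46 cells. It had a UMI in 5 of 51 GO1 cells, 8 of 26 GO2 cells, 32 of 44 GO3 cells and 48 of 56 FGO cells, and the median FGO cell had 12.5 CPM and the highest 243 CPM. The highest FGO cells thus reached into the range of the NGO cells, while GO1 cells stayed at 20.6 CPM or less. The NGO level was 1111 times that of GO1 (585 to 2430) and 19.4 times that of FGO (18.3 to 20.6).

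The next 4 genes by this measure, among those with at least 10 CPM in FGO, were *Myot*, *Maged1*, *Eif4ebp1* and *Bbx*. *Myot* encodes myotilin, an actin-binding protein of the muscle Z-disc, and had 385, 4.07, 3.56, 9.35 and 62.9 CPM in the 5 stages, a ratio of FGO over GO1 of 15.4 (12.8 to 18.9). Single cells had 80.3 to 741 CPM of *Myot* in NGO and 0 to 317 CPM in FGO, with 54 of 56 FGO cells showing a UMI against 22 of 51 GO1 cells. *Eif4ebp1*, a repressor of cap-dependent translation, had 249, 4.30, 5.93, 9.19 and 34.6 CPM, 8.05 times as much in FGO as in GO1 (6.67 to 9.79). *Bbx*, an HMG-box protein, had 158.9, 4.49, 5.45, 4.03 and 31.1 CPM, 6.93 times as much (5.76 to 8.40). These genes shared a low in GO1 to GO3 and an FGO level of 13.9% to 19.6% of NGO for *Eif4ebp1*, *Myot* and *Bbx*. *Bbx* was no longer 5-fold below NGO in each later stage under any of 7 alternatives (other scaling by DESeq2 or TMM, equal weight, thinned cells, no deepest cells, equal cell numbers, or no top NGO cell), with ratios of 3.14 to 4.83. *Myot* missed the limit under 3 of the 7, with a lowest ratio of 4.67.

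Genes of meiosis and germ line RNA form a group of 6 members with 34.1 to 1098 CPM in NGO. Their summed level was 1647 CPM at NGO and 95.2, 89.8, 83.1 and 132.8 CPM in the later stages. *Sycp3* (chr10:87922314-87935981, plus strand), a lateral element protein of the synaptonemal complex, had 1098, 46.7, 38.8, 35.9 and 52.7 CPM. Single NGO cells had 230 to 2021 CPM of *Sycp3* and later cells 0 to 240 CPM, so that the lowest NGO cell fell within the later range and the median NGO cell, at 1133 CPM, was far above it. Its later levels were close to each other, with FGO at 1.13 times GO1 (1.06 to 1.20). *Sycp1* (chr3:102622422-102740023, minus strand), which forms the transverse filaments that join the lateral elements, had 172, 30.3, 32.2, 18.5 and 25.1 CPM and was 0.830 times as high in FGO as in GO1 (0.762 to 0.904). The 2 genes therefore kept different shares, 4.79% for *Sycp3* and 18.7% for *Sycp1* in their highest later stage. They were the 2 members among 19 meiotic prophase genes with at least 20 CPM in NGO. *Sycp1* missed the 5-fold limit under 6 of 7 alternatives, with ratios down to 4.00 in place of 5.34. The median of these 19 kept 67.9% in its highest later stage, and *Sycp2*, whose protein lies beside SYCP3 in the lateral element, was at 42.3 CPM before growth and at 75.7 CPM in GO1.

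The piRNA pathway, in which small RNAs guide PIWI proteins to silence transposons, gave 2 members. *Mov10l1* (chr15:88813339-88885582, plus strand), the helicase that feeds piRNA precursors into processing, had 178, 12.2, 13.6, 17.7 and 31.4 CPM, with a ratio of FGO over GO1 of 2.58 (2.29 to 2.91). Its NGO cells had 41.8 to 458 CPM (median 173), and the median was 0 in GO1 cells and 32.6 CPM in FGO cells. *Piwil2* (chr14:70772287-70828901, minus strand), a PIWI protein, had 34.1, 2.88, 1.32, 3.83 and 6.81 CPM. *Piwil2* missed the 5-fold limit under 5 of 7 alternatives (lowest ratio 4.06) and *Mov10l1* under 1 (4.81). Of the 15 genes of this pathway with at least 20 CPM in NGO, 6 were at most 1/5 of the NGO level in GO1 and the median kept 58.1% in its highest later stage. *Rbm46* (chr3:82641155-82680405, minus strand), an RNA-binding protein required in early meiosis, was the member among 13 germ cell identity genes, with 45.99, 0.972, 0.921, 1.10 and 3.16 CPM. Its ratio of NGO over the highest later stage was 14.6 (12.5 to 17), and 7.51 with equal weight for every cell. *Adad2*, a double-stranded RNA-binding protein of germ cells, had 118.9, 2.24, 2.96, 6.02 and 13.6 CPM and was 6.07 times as high in FGO as in GO1 (4.67 to 8.03).

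Among transcription and chromatin genes, 9 were members, with 25.2 to 374 CPM in NGO. Beside *Sohlh1* and *Bbx* these were the zinc finger genes *Ovol1* and *Zfp763*, *Atf6b* of the endoplasmic reticulum stress response, *Arntl2* of the circadian clock, *Hdac6*, a cytoplasmic deacetylase, *Polr3g*, a subunit of RNA polymerase III, and *Nelfcd*, a subunit of the negative elongation factor. *Ovol1* had 40.1, 3.89, 2.20, 3.47 and 7.95 CPM and kept 19.8% in FGO, and it missed the 5-fold limit under 4 of 7 alternatives (lowest ratio 4.47). Of 17 early oocyte transcription factors with at least 20 CPM in NGO, *Sohlh1* and *Ovol1* were members and 7 were at most 1/5 of NGO in GO1. By the rule, each of these 17 outside the set kept more than 20% in its highest later stage. Of those with a primordial role, *Sohlh2*, the partner of SOHLH1, kept 21.6% and *Figla* 28.5%, while *Lhx8* kept 54.7% and *Nobox* was at 140.2%. The share of *Sohlh2* lies just above the limit of 20%.

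The MAGE and tumour antigen group held 3 genes of the X chromosome. *Maged1* (chrX:91780813-91787482, minus strand), a MAGE family adaptor protein, had 511, 5.42, 3.52, 8.47 and 53.4 CPM. Its NGO cells had 211 to 945 CPM and its FGO cells 0 to 388 CPM, with a ratio of FGO over GO1 of 9.85 (8.34 to 11.7), so the highest FGO cells overlapped the NGO cells. *Mageb4* (chrX:83495593-83550432, minus strand), another MAGE gene, had 30.9, 0.150, 0.200, 0.562 and 0.917 CPM, from 778, 4, 5, 28 and 59 UMIs. *Trap1a* (chrX:135868222-135872708, plus strand), a tumour rejection antigen gene, had 21.3, 0.112, 0.360, 0.341 and 0.544 CPM, from 537, 3, 9, 17 and 35 UMIs. The NGO level was 33.7 times the highest later level for *Mageb4* (25.8 to 44.6) and 39.2 times for *Trap1a* (27.8 to 56.8), or 19.3 and 22.4 times with equal weight for every cell. Of 10 X-linked germ line and cancer-testis genes with at least 20 CPM in NGO, these 3 were members, and the median of the 10 kept 34.6%.

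On the X chromosome lay 8 of the 76 genes (10.5%), against 177 of 5878 NGO genes whose chromosome was found (3.01%). The other 5 were *Hdac6*, *Pcsk1n*, an inhibitor of a prohormone convertase, *Prdx4*, *Itm2a*, an integral membrane protein, and *Bex3*, a small adaptor protein. Members made up 4.52% of the X-linked NGO genes and 1.19% of the 5701 autosomal ones. Over all NGO genes, the median kept in the highest later stage was 79.9% for the X-linked and 95.6% for the autosomal genes. *Itm2a* had 21.6, 0.224, 0.561, 0.100 and 0.451 CPM and *Bex3* 38.5, 1.68, 1.001, 0.823 and 2.10 CPM, both among the 10 genes with the largest ratio of NGO over the highest later stage. *Prdx4* and *Pcsk1n*, by contrast, were flat after NGO, with 11.4 to 13.01 CPM and 4.17 to 5.49 CPM in the later stages.

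*Crabp1* (chr9:54612555-54620917, plus strand), which encodes a cytoplasmic binding protein for retinoic acid, had the largest ratio of the 76. It had 41.6 CPM in NGO from 1048 UMIs, 0 UMIs from GO1 to GO3, and 10 UMIs (0.155 CPM) in FGO. With 3 UMIs per stage sum taken as the limit of a count of 0, GO1 was at least 371-fold lower than NGO. NGO was 267 times as high as FGO (144.9 to 559), and 143.3 times without the 10 deepest cells of each stage. In cells thinned to 20000 UMIs its later UMIs were 0, and by the limit of 3 UMIs NGO was at least 13.3 times as high as GO1. For GO2 and GO3, which have fewer cells than GO1, that limit gives a lower bound. In NGO 43 of 46 cells showed a UMI, from 0 to 193 CPM with a median of 30.3 CPM, while 5 of 56 FGO cells showed one and no cell of the stages between did. Of 16 genes of retinoid binding and response, 3 reached 20 CPM in NGO, and the other 2, the enzymes *Rdh10* and *Dhrs3*, were higher in GO3 than in NGO.

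Cytoskeleton and junction genes made the group with the highest summed NGO level, 2142 CPM in 9 genes, with 168.8 CPM at GO1, 154.8 CPM at GO3 and 347 CPM at FGO. *Actg1*, cytoplasmic gamma actin, was the most abundant of all 76 genes, with 1121, 124.6, 88.2, 105.4 and 210 CPM and 301 to 2016 CPM in single NGO cells. Its later cells had 13.99 to 598 CPM, so the ranges overlapped at their ends. *Lcp1*, an actin-bundling plastin, had 283, 24.1, 20.3, 24.6 and 41.7 CPM. Among 11 epithelial junction and keratin genes with at least 20 CPM in NGO, 4 were members. *Krt79*, a keratin, had 120.2, 5.16, 4.28, 1.41 and 5.46 CPM, and NGO was 22.03 times as high as the highest later stage (19.7 to 24.7). *Krt36*, a hair keratin, had 46.3, 2.50, 4.24, 4.01 and 6.66 CPM. The desmosome gene *Pkp2* had 43.9, 3.70, 1.48, 3.07 and 6.39 CPM, and *Epcam*, an epithelial adhesion molecule, 31.6, 1.38, 1.92, 1.99 and 3.79 CPM. The group also held *Myot*, described above, and *Marcksl1* and *Cdc42ep4*, both linked to actin. The 5-fold limit was missed by *Epcam* with equal weight for every cell (4.34 in place of 8.32) and in thinned cells (4.06), by *Krt36* (3.84 in place of 6.96) and *Lcp1* (4.85) in thinned cells, and by *Actg1* under 2 of 7 alternatives (lowest ratio 4.23). For *Krt79* the ratio was 12.1 when 26 cells were drawn from each stage.

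RNA processing and translation gave 4 members, *Cwc22*, *Eif4ebp1*, *Rbms1*, a single-strand nucleic acid-binding protein, and *Fbl*, the nucleolar methyltransferase fibrillarin. *Cwc22*, which loads the exon junction complex during splicing, had 477, 24.9, 12.1, 24.3 and 94.03 CPM, and its FGO cells had 17.5 to 987 CPM against 74.7 to 1158 CPM in NGO cells. Its ratio of NGO over the highest later stage, 5.07, was 2.51 to 4.79 under the 7 alternatives, all below the limit. The lysosome, vesicle and protein turnover group held 9 members, among them the cathepsins *Ctsd* and *Ctsf*, the lysosomal hydrolase-like *Plbd2*, *Gabarap* of autophagosomes, *Ap3b2* and *Bloc1s6* of vesicle sorting, *Fbxw2* and *Klhl22* of ubiquitin ligases, and *Sgsm2*. *Ctsd*, a lysosomal aspartic protease, had 417, 34.8, 35.6, 38.9 and 71.7 CPM, with 226 to 537 CPM in NGO cells and 0 to 176 CPM in later cells. *Ctsf*, a cysteine protease, had 20.6, 0.411, 0.200, 0.522 and 1.21 CPM.

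Metabolism and redox formed the group with most named members, 17 genes at 20.1 to 176 CPM in NGO. They were *Xdh*, *Cox4i2*, *Gsr*, *Prdx4*, *Ero1l*, *Hadh*, *Acadl*, *Aldh16a1*, *Hpdl*, *Slc25a10*, *Pfkfb3*, *Impdh1*, *Bpnt1*, *Acy1*, *Alox8*, *Ptgds* and *Nme2*. Of these 17 genes, 10 were at least 2-fold higher in FGO than in GO1. The share of such genes was 53.9% over the whole set and 9.55% over the NGO genes. The count of 10 therefore cannot be read as a trait of this group. *Cox4i2*, an alternative subunit of cytochrome c oxidase, had 118.4, 2.39, 2.40, 2.09 and 5.44 CPM and a ratio of NGO over the highest later stage of 21.8 (19.5 to 24.4). *Impdh1*, of guanine nucleotide synthesis, was the least abundant member with 20.1 CPM in NGO and 0.934, 0.360, 1.16 and 1.69 CPM later. *Xdh*, xanthine dehydrogenase of purine breakdown, had 176, 29.5, 3.04, 13.8 and 26.1 CPM, but its later levels came from few cells. In GO1, GO2 and GO3 a single cell held 60.4%, 55.3% and 54.7% of its UMIs. The median cell had 118.5 CPM in NGO and 0, 0.590, 0.218 and 0.518 CPM later, while the highest later cells reached 379, 91.6, 311 and 470 CPM. More than 50 CPM of *Xdh* was found in 35 of 46 NGO cells, 8 of 51 GO1 cells, 1 of 26 GO2 cells, 2 of 44 GO3 cells and 11 of 56 FGO cells.

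**Figure D4:**
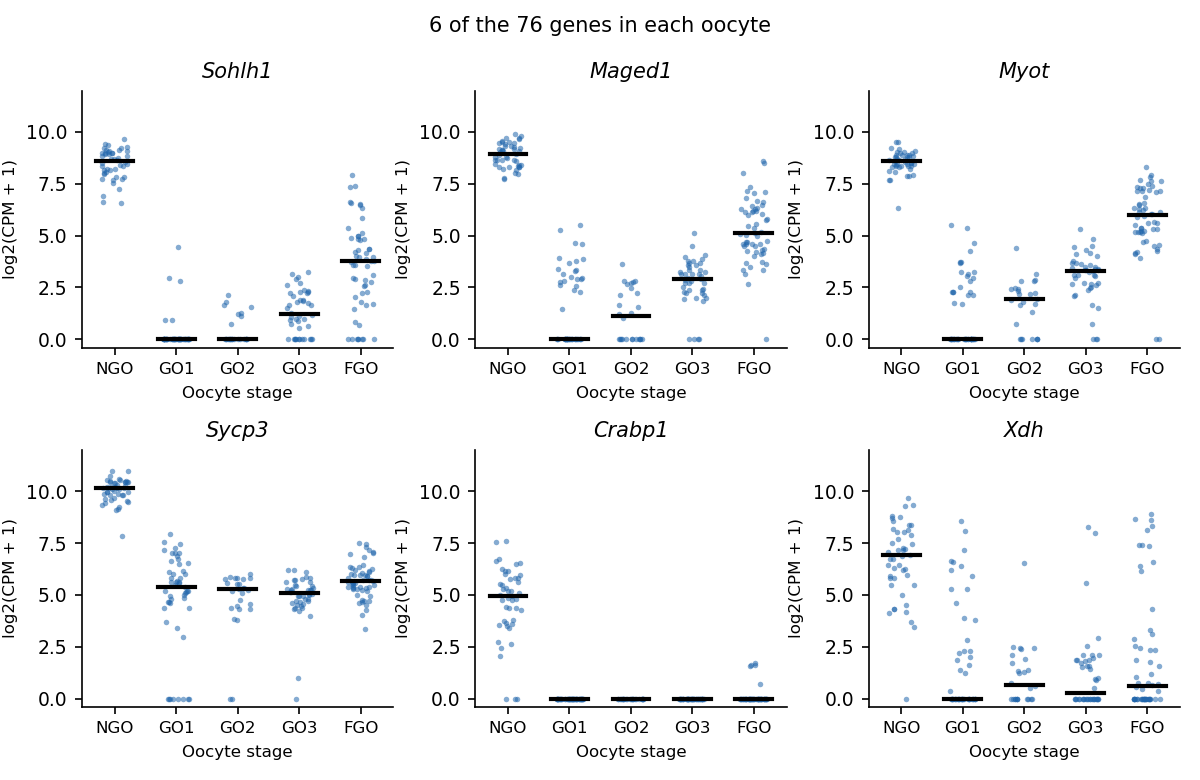
Level of 6 genes in each oocyte as log2(CPM + 1), by stage, with 1 point per cell and the median as a bar. *Sohlh1*, *Maged1* and *Myot* are near 0 in most GO1 cells and spread upward in FGO, *Sycp3* stays level after NGO, *Crabp1* is near 0 in all later cells, and *Xdh* is at 0 or near it in most later cells with a few cells in the range of NGO.

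The remaining 18 genes beside *Crabp1* fell into no group. They were *Rangap1*, *Nabp1*, *Bid*, *H2-D1*, *Kcnma1*, *Fxyd6*, *Pcsk1n*, *Ogfr*, *Gin1*, *Vat1*, *Atxn10*, *Bex3*, *Itm2a*, *Fkbp9*, *Ttc13*, *Rbakdn*, *4833439L19Rik* and *Fam109a*. With *Crabp1* they had up to 127.7 CPM in NGO and kept a median of 12.2% in the highest later stage. Cell cycle and DNA replication genes gave 0 members, although 21 of the list had at least 20 CPM in NGO, and the median of these kept 82.5%.

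Without the NGO cell that held most UMIs of the gene in question, 64 of the 76 genes still met the rule. The 5 genes with most of their NGO UMIs in 1 cell were *Alox8* (26.2%), a lipoxygenase, *Ero1l* (20.1%), which drives disulphide formation in the endoplasmic reticulum, *Crabp1* (13.9%), *Rbm46* (12.8%) and *Cwc22* (12.2%). *Alox8* had 26.1, 0.785, 0.320, 1.36 and 2.83 CPM, and 38 of 46 NGO cells showed a UMI. *Ero1l* had 74.97, 7.51, 8.09, 5.82 and 14.96 CPM, and missed the 5-fold limit under all 7 alternatives (lowest ratio 3.36). *Alox8* missed it in thinned cells (4.17 in place of 9.21). Just inside the 20% limit lay *Piwil2* (19.98%), *Ero1l* (19.95%) and *Ovol1* (19.8%), and just outside it *Pycr1* (20.3%), *Igfbp6* (20.4%) and *Tdrd9* (20.5%). Just above 20 CPM in NGO lay *Fxyd6* (20.8 CPM), *Ctsf* (20.6 CPM) and *Impdh1* (20.1 CPM), and just below it, with the 5-fold limit met, *Fbln1* (19.13 CPM), *Thbs4* (18.97 CPM) and *M1ap* (18.4 CPM).

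The cells were oocytes by their markers, with all 12 oocyte markers at 20 CPM or more in NGO and 15578 to 28514 summed CPM in the 5 stages. The 18 granulosa and pregranulosa markers summed to 30.1 CPM in NGO and 105.4 to 222 CPM later, mostly *Esr2* (12.6 CPM in NGO, 83.4 to 185 CPM later). *Nr5a2* had 6.91 CPM in NGO and 7.84 to 14.5 CPM later, and *Cyp19a1* 1.11 CPM and 1.54 to 16.3 CPM. *Inhba* was highest in NGO (1.67 CPM), and *Foxl2* and *Amh* were at or under 0.233 CPM in every stage. The 12 stroma and theca markers summed to 15.4 CPM in NGO and 6.89 to 11.02 CPM later, with 257 CPM in the highest NGO cell. *Dcn*, *Col1a1*, *Col1a2* and *Col3a1* were highest in NGO, at 3.25, 2.02, 1.15 and 0.992 CPM. Their later levels were at most 0.520, 0.0933, 0.0400 and 0.0374 CPM. *Acta2* had 5.56 CPM in NGO and 1.61 to 5.68 CPM later, *Nr2f2* 1.03 CPM and 1.28 to 2.95 CPM, and *Tcf21* was at 0 throughout. The 12 blood and endothelial markers summed to 9.56 CPM in NGO and 28.6 to 51.7 CPM later, with *Hbb-bt* at 0. The later sums were mostly *Pecam1*, while the NGO sum was mostly *Pecam1* and the macrophage marker *Cd68* in similar parts. *Cd68* went against the sum, with 4.48 CPM in NGO and 1.57 to 1.88 CPM later. The part of other cells in the levels of the 76 genes was not tested. Positions were found for 70 of the 76 genes, and 15 of these overlapped another annotated gene, among them *Sycp3* (*Chpt1*), *Gin1* (*Ppip5k2*), *Vat1* (*Rnd2*) and *Pcsk1n* (*Eras*). Whether counting used the strand is not given in the sources used here, so counts of overlapping genes are uncertain. Counts of *Actg1*, *Nme2*, *H2-D1* and the MAGE genes are uncertain as well, because near-identical relatives could share their reads.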

How the data were processed

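The authors split the reads into cells by barcode, trimmed and mapped these to the mm9 transcriptome using Tophat v2.0.12, collapsed duplicates by UMI, removed cells with few genes or transcripts or a high share of spike-ins, and deposited UMI counts per gene and cell without normalization. The table held 223 cells and no identical pair. Column names give the stage and not the library or barcode, so cells of a stage were summed as 1 sample and barcodes shared between libraries could not be counted. CPM, exact Poisson and binomial intervals and the counts by size were computed with Python 3.11.15, pandas 2.3.3 and scipy 1.17.1. For ratios, a count of 0 was read as up to 3 UMIs per stage sum, and for the counts by size it was left at 0. DESeq2 1.42.0 and edgeR 4.0.16 served for scaling only. The rule was tested on simulated data. No doublet caller was run on the hand-picked oocytes. Stage totals were 24976634 to 64311908 UMIs.

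The 76 genes, the lists and the groups by role were chosen with earlier results of these data known. Named genes were all list members, the 10 most abundant in NGO, the 10 with the largest ratio, those nearest the limits, the 5 most raised from GO1 to FGO with at least 10 CPM in FGO and the 5 most concentrated in 1 NGO cell. Others are named to account for the set or were picked after their values were seen. Positions are those of GENCODE vM1 on NCBIM37 (mm9), and chromosomes were read from RefSeq for all 76 genes. Promoters were not used for *Myot*, *Eif4ebp1*, *Xdh*, *Bbx*, *Fbl*, *Cox4i2*, *Ero1l*, *Plbd2*, *Nelfcd*, *Pkp2*, *Ovol1*, *Bloc1s6*, *Piwil2*, *Gsr*, *4833439L19Rik* and *Fam109a*. The chromatin and methylation data of the study were not analysed here.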

Additional observations from a re-analysis of the deposited data

How the results depend on the processing

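The set depended on its limits and on how stages were scaled. As a percent of the 76 genes, it held 60.5% with TMM factors (46 genes), 161.8% at 10 CPM in NGO (47 genes more), 46.1% at 50 CPM (35 genes), 1046% with no minimum (795 genes), 400% at a limit of 3-fold (304 genes) and 26.3% at 10-fold (20 genes). With DESeq2 size factors it held 61, all among the 76, and under the other weightings of cells 39 of the 76 (cells thinned to 20000 UMIs) to 64 still met the rule. Genes at least 2-fold higher in FGO than in GO1 numbered 27 with TMM factors, or 58.7% of that set, against 9.67% of the NGO genes. Without the 10 deepest cells of each stage they numbered 69 (67.6%, against 27.7%). At other limits such genes numbered 69 at 10 CPM (56.1%), 18 at 50 CPM (51.4%), 140 at 3-fold (46.1%) and 13 at 10-fold (65%). The share of the NGO genes there was 9.55%, as in the main setting. Genes 2-fold lower in FGO numbered 1 with equal weight of cells, without the deepest cells, at 10 CPM and at 3-fold, and 3 in thinned cells. The median kept in the highest later stage was 26.6% at 3-fold and 6.13% at 10-fold. Genes on chromosome X numbered 5 with TMM factors, 13 at 10 CPM, 4 at 50 CPM, 22 at 3-fold and 5 at 10-fold. TMM factors moved later stages upward against NGO by 0.16 to 0.33 on the log2 scale and DESeq2 size factors by 0.08 to 0.29. Of 30 named genes, 19 to 26 kept a ratio of at least 5 under each alternative. In thinned cells the ratio of *Crabp1* was known only as a bound, at least 13.3 against GO1, where the main value was 267 against FGO. Except where an alternative's own construction sets the number, the cause was not tested. No paired analysis was possible because each stage was 1 pooled sample.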

Other observations

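A larger group of genes met the 5-fold limit in GO1, GO2 and GO3 but not in FGO. It held 177 genes against the 76 that met it in all 4 later stages, so the 76 are 30.0% of the 253 genes that met it up to GO3. In FGO these 177 genes stood at a median of 28.8% of the NGO level and at most at 59.05%, and 72.9% of them were at least 2-fold higher in FGO than in GO1. By definition each of them met the limit in GO1 and missed it in FGO. Each is therefore higher in FGO than in GO1 by the choice, and neither the median nor the share of 72.9% is a separate result. Examples from the gene lists, picked after their values were seen, were *Smc1b*, a meiotic cohesin subunit, with 660, 65.8, 63.4, 76.97 and 157.9 CPM from NGO to FGO, *Figla*, a factor needed for primordial follicles, with 597, 65.5, 58.8, 102.3 and 170.5 CPM, and *Rhox10*, an X-linked homeobox gene, with 49.1, 4.52, 4.36, 8.31 and 12.7 CPM.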
